A study of Mus musculus with 4 samples.

Results

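Levels of 10 genes of the neuronal microtubule system were followed: the beta tubulin genes Tubb3, Tubb2b, Tubb4a and Tubb6, the microtubule-associated protein (MAP) genes Map2, Map1b, Map4 and Mapt, and the stathmin genes Stmn2 and Stmn3. They are 10 of 18193 named genes measured in the series. A gene was taken as measured where the annotation of the array named it, which gave 26 probe sets for the 10 genes, 25 of them naming 1 of these genes alone. Each gene is represented by the probe set of its own with the highest mean log2 level over the 4 arrays, and its further probe sets are given beside it. The probe set was chosen by its level over all 4 arrays, and the genes themselves were selected on knowledge of this same comparison, so their differences are described here and not tested.

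The cells were K7M2, a mouse osteosarcoma line that spreads readily to the lung, grown in DMEM with serum. The GFP group was 1 array, of RNA from K7M2 cells over-expressing GFP and the other group was 3 arrays, of RNA from K7M2 cells over-expressing ezrinT567A-GFP, an ezrin that cannot be phosphorylated at its regulatory C-terminal threonine. Every group therefore carries GFP, and the labels do not say whether the replicates were separate cultures, clones or repeat preparations. The GFP group has no replicate, so its own spread is unknown, and with 4 arrays the smallest p an exact permutation can give is 0.25. Ezr itself, by its brightest probe set, read 8.97, 8.94 and 8.81 on the ezrinT567A-GFP arrays around 8.90 on the GFP array, so the groups overlap. A further Ezr probe set of similar level read 8.63 with GFP against 9.08, 8.75 and 9.05 with ezrinT567A-GFP, a difference of 0.33 with all 3 arrays above GFP. The 2 probe sets therefore differ, and no level of the transgene could be separated from that of the cell's own Ezr.

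Microtubules are polymers of alpha and beta tubulin dimers that grow and shrink at their ends. MAPs such as MAP2 and tau bind along the polymer and stabilise it, while stathmins bind free dimers and favour shrinkage. Neurons use a particular set of these genes: TUBB3 is the beta tubulin most often taken as a neuronal marker, MAP2 marks dendrites and tau marks axons. TUBB6 and MAP4, by contrast, are made in many cell types outside the nervous system. Tumours that do not arise from neurons can also express TUBB3.

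The promoters of the 3 genes with the largest differences, Map2, Tubb3 and Map1b, are shown with that of Tubb4a, a beta tubulin gene with a difference close to 0, so that the sequence around their starts can be seen side by side. RefSeq entries of build GRCm38.p6 were used for 6 of the 10 genes, Map2, Tubb3, Tubb4a, Map1b, Map4 and Stmn3. They gave 7 promoters, since Map4 has more than 1. The set of entries used was not complete, so a gene left out here, such as Tubb6, may still have an entry. Each runs from 250 bases before an annotated start to 50 bases after it, written 5′ to 3′ on the gene's strand. Capitals mark GGGCGG, the GC box bound by SP1-family factors, or its reverse complement CCGCCC.
Map2 (chr1:66175079-66175378, plus strand): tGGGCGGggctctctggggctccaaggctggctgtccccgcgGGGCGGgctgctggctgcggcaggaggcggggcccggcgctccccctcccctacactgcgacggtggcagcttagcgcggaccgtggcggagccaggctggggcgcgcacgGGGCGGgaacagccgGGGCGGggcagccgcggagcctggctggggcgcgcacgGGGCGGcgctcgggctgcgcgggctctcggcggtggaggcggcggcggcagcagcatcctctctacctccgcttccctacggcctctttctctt
Tubb3 (chr8:123411303-123411602, plus strand): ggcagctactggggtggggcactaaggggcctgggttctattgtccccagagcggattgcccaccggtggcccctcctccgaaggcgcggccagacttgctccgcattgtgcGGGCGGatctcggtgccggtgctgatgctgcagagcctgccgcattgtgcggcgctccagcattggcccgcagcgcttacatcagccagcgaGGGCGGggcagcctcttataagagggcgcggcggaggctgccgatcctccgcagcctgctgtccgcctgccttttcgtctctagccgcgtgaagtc
Map1b (chr13:99516553-99516852, minus strand): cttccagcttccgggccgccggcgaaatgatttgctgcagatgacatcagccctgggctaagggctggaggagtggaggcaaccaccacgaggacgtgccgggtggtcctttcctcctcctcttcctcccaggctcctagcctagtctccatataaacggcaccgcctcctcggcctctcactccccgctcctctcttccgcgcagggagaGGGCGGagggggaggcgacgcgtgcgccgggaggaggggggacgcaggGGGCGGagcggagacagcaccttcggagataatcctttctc
Tubb4a (chr17:57087551-57087850, minus strand): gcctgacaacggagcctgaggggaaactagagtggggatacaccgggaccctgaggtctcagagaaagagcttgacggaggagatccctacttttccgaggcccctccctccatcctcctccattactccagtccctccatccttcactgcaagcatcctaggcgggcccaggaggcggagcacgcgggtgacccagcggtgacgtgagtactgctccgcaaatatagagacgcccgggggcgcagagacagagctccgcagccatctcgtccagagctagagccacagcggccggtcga
On both strands, and counting overlapping matches, GGGCGG occurred 5 times in the Map2 promoter, 2 times in that of Tubb3, 2 times in that of Map1b and 0 times in that of Tubb4a. At least 1 match was present in 35.7% of 32851 mouse promoters of this length, and at least 5 were present in 2.71%. The Map2 promoter was 77.7% G and C, with 37 CG pairs, the Tubb3 promoter 67.3%, with 26, the Map1b promoter 65.7%, with 23, and the Tubb4a promoter 62.3%, with 19. The median over all promoters was 52.7%, with 7 CG pairs. TATAAA, searched on both strands, was found in the Map1b promoter among these 4 and in 13.6% of all promoters, and CCAAT was found in that of Tubb3 among these 4 and in 37.4% of all. GGGCGG also occurred 3 times in 1 of the Map4 promoters and 0 times in the other and in that of Stmn3. The Map4 promoter with 3 matches was 73.3% G and C, with 42 CG pairs, and Map4 differed by 0.12. The other Map4 promoter was 46%, with 5 CG pairs, and that of Stmn3 49.7%, with 6. A relation between promoter sequence and difference was not tested. These matches describe the letters in these windows and are not binding sites.

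The deposited values were log2 levels, and an array reports a level for every probe set, expressed or not. To read dim values, 44 probe sets of 39 olfactory receptor genes, which are not expected in bone tumour cells, were used as a gauge of background. Their 95th percentile was 3.49 in GFP and 3.46, 3.52 and 3.33 in ezrinT567A-GFP replicates 1, 2 and 3, and is called the background level here. By it, Tubb2b lay under background in all 4 arrays, Map2 in the GFP array alone, and the brightest probe sets of the other 8 genes above it in every array. Mapt, Stmn2, Tubb4a and Stmn3 lay close to it, between 3.51 and 4.80, and so did the Tubb3 value in GFP (4.34) and the 3 Map2 values in ezrinT567A-GFP (4.13 to 4.54). The median of all named probe sets lay between 4.41 and 4.43 in the 4 arrays. The hybridization spike-ins, which are added in fixed amounts, averaged 9.32 on the GFP array and 10.1, 11.1 and 10.4 on the others. The GFP array was thus the lowest of the 4, along the comparison itself, and the part of this in the differences given here was not tested.

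**Figure D1:**
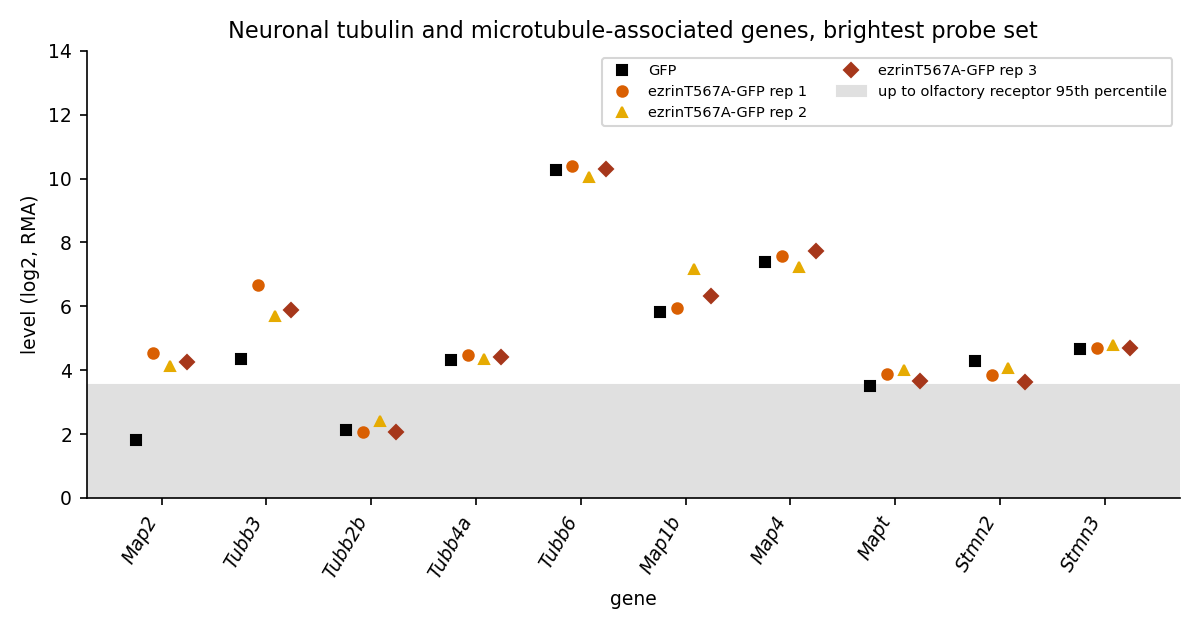
Level of each of the 10 genes (y axis, log2 by RMA, brightest probe set) in the GFP array (black square) and in the 3 ezrinT567A-GFP arrays (coloured symbols), with the range up to the highest olfactory receptor 95th percentile shaded grey. Map2 moves from 1.80 in GFP to between 4.13 and 4.54, Tubb3 stands higher in all 3 ezrinT567A-GFP arrays, and Tubb6 stays near 10 in all 4.

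Map2 and Tubb3 stood out on the higher side, and the remaining genes lay within 0.66 log2 of GFP. Over the 10 genes, 2 were at least 2-fold higher in ezrinT567A-GFP and 0 were at least 2-fold lower, where 0.973% and 0.704% of all genes were. In 6 genes all 3 ezrinT567A-GFP arrays lay above GFP and in 1 all 3 lay below, against 32.5% and 25.6% of all genes. The median difference (ezrinT567A-GFP mean minus GFP) was 0.10 on the log2 scale over the 10 genes and 0.03 over all genes. Since these genes were chosen with the same comparison in view, nothing is read from these shares. With limma, 0% of all genes had an adjusted p under 0.05 (0 of 18193), while 2540 (14%) had an unadjusted p under 0.05.

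Map2 encodes the MAP that bundles and spaces microtubules in dendrites. Its brightest probe set, 1434194_at, read 1.80 in GFP and 4.54, 4.13 and 4.27 in ezrinT567A-GFP replicates 1, 2 and 3. The 3 values lie close together and far above the single GFP value, which is below background. The mean of 4.32 ± 0.21 (SD, n = 3) is 2.51 (SE 0.20) above GFP on the log2 scale, or 5.71-fold. Counting higher genes only, 6 of 18193 (0.033%), Map2 included, differed by at least this much. Because the GFP value is not shown to be signal, the size of the fold is uncertain: with every value raised to the background level of its array, a setting chosen after seeing the data, the difference was 0.83, or 1.77-fold.

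The further Map2 probe sets gave far smaller differences, and all of them stayed under the background level in all 4 arrays. Probe set 1421328_at read 2.12 in GFP and 2.73, 2.70 and 2.38, a difference of 0.49, and 1421327_at, which the annotation assigns to the same sequence record, read 2.22 in GFP and 2.88, 2.74 and 2.25, a difference of 0.41. In both, all 3 ezrinT567A-GFP arrays lay above GFP. Probe set 1440699_at read 2.60 in GFP and 2.59, 2.79 and 2.69, a difference of 0.09, with the groups overlapping. Averaged over its probe sets the difference of Map2 was 0.87, so the 2-fold mark was passed by 1 of its 4 probe sets. Genes of chromosome 1, where Map2 lies, were on the whole lower in ezrinT567A-GFP, with a median difference of -0.34 over 510 genes above the median level, and the part of this shift in the value of Map2 was not tested. Relative to that median the difference of Map2 was 2.85.

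Tubb3 encodes class III beta tubulin. Its only probe set, 1415978_at, read 4.34 in GFP and 6.65, 5.71 and 5.89 in ezrinT567A-GFP replicates 1, 2 and 3. All 4 values lie above background, replicate 1 is the highest, and the groups do not overlap. The mean of 6.08 ± 0.50 (SD, n = 3) is 1.74 (SE 0.42) above GFP, or 3.35-fold. On the higher side alone, 31 of 18193 genes (0.17%), Tubb3 included, differed by at least this much. Without replicate 1, 2 or 3 the difference was 1.46, 1.93 or 1.84. Tubb3 lies on chromosome 8, whose 516 genes above the median level had a median difference of 0.24, and relative to it the difference was 1.50.

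The other beta tubulin genes among the 10 had differences under 0.10 by their brightest probe sets. Tubb6, a beta tubulin of many tissues, read 10.27 in GFP and 10.40, 10.06 and 10.29 in ezrinT567A-GFP, a difference of -0.02 (SE 0.16), with GFP inside the range of the 3 arrays. A further Tubb6 probe set was dim, at 3.57 in GFP and 3.82, 4.33 and 3.82, a difference of 0.42. Tubb4a, mainly a brain beta tubulin, read 4.33 in GFP and 4.48, 4.34 and 4.42, a difference of 0.09 (SE 0.12). All 3 of its ezrinT567A-GFP values lay above GFP, but replicate 2 by only 0.01. Tubb2b, a beta tubulin of developing neurons, read 2.13 in GFP and 2.07, 2.42 and 2.07, all under background, and its 2 lowest values were identical. A probe set shared by Tubb2b and Tubb2a-ps2, which cannot be assigned to either, read between 2.44 and 2.54 in the 4 arrays.

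**Figure D2:**
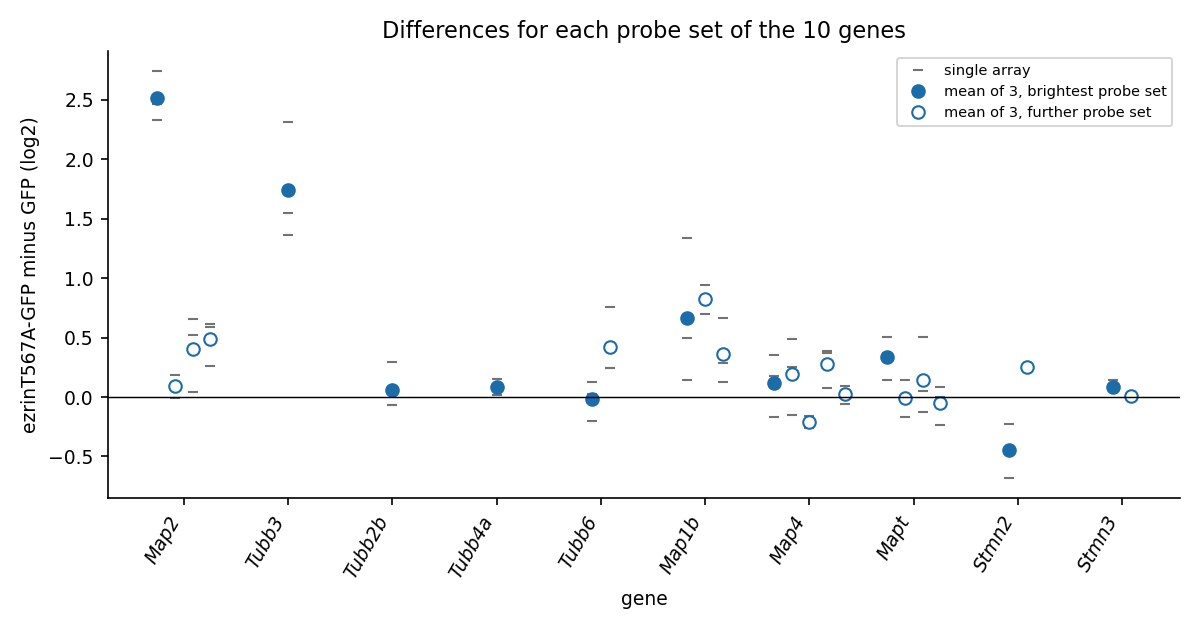
Difference from GFP (y axis, log2) for every probe set of the 10 genes. Filled circles are the mean of the 3 ezrinT567A-GFP arrays for the brightest probe set of a gene, open circles the same for its further probe sets, and dashes the single arrays. The brightest Map2 probe set (2.51) stands apart from its other 3 (0.09 to 0.49), while the 3 of Map1b all lie above 0.

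Map1b, whose product is a MAP of growing axons, was higher in all 3 ezrinT567A-GFP arrays by each of its 3 probe sets, but by uneven amounts. The brightest, 1421851_at, read 5.82 with GFP against 5.96, 7.16 and 6.32 in the ezrinT567A-GFP replicates, and the difference of 0.66 (SE 0.50) is close to the SD of 0.61 over the 3 arrays (n = 3). Replicate 2 is the high array, and without it the difference was 0.32. Probe set 1450397_at was more even, at 5.11 in GFP and 5.81, 5.95 and 6.05, a difference of 0.83 with an SD of 0.12 (n = 3). Probe set 1421850_at, near background, read 3.29 in GFP and 3.42, 3.96 and 3.58, a difference of 0.36. The 3 probe sets are annotated to the same sequence record and are not independent measurements of Map1b. Replicate 2 also had the highest 18S rRNA level of the arrays (11.3, against 9.09 in GFP, 7.65 in replicate 1 and 7.76 in replicate 3), and the part of this in the values of Map1b was not tested.

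Map4 and Mapt, which encode MAPs of one family with MAP2, had smaller differences. Map4, the MAP of most dividing cells, read 7.39 in GFP and 7.56, 7.22 and 7.74, a difference of 0.12 (SE 0.24) with overlapping groups, and its next probe set gave 0.20 in the same order of arrays. Its 3 dim probe sets gave -0.21, 0.28 and 0.03, all under background. Mapt, which encodes tau, read 3.51 in GFP and 3.88, 4.02 and 3.66, a difference of 0.34 (SE 0.18). All 3 arrays lay above GFP, but its further probe sets gave 0.14, -0.01 and -0.05, with groups that overlap or touch, so the probe sets of Mapt do not share a direction.

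The stathmin genes Stmn2 and Stmn3 differed in opposite directions by their brightest probe sets. Stmn2, which encodes the neuronal growth-cone stathmin SCG10, read 4.30 in GFP and 3.86, 4.07 and 3.62, a difference of -0.45 (SE 0.21), and was the gene of the 10 with all 3 ezrinT567A-GFP arrays below GFP. Its further probe set lay under background and pointed the other way, at 2.01 in GFP and an identical 2.26 in all 3 ezrinT567A-GFP arrays. Stmn3 read 4.65 in GFP and 4.71, 4.80 and 4.71, a difference of 0.08 (SE 0.12), with all 3 arrays above GFP and replicates 1 and 3 identical. These values are from 1435113_x_at, a probe set of a kind that can also bind related sequences. A further Stmn3 probe set, under background in all 4 arrays, gave 0.01. Identical values on several arrays occurred in other dim probe sets too, and 97 of 18193 genes had the same value on all 3 ezrinT567A-GFP arrays, so a small SD is no sign of precision there.

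**Figure D3:**
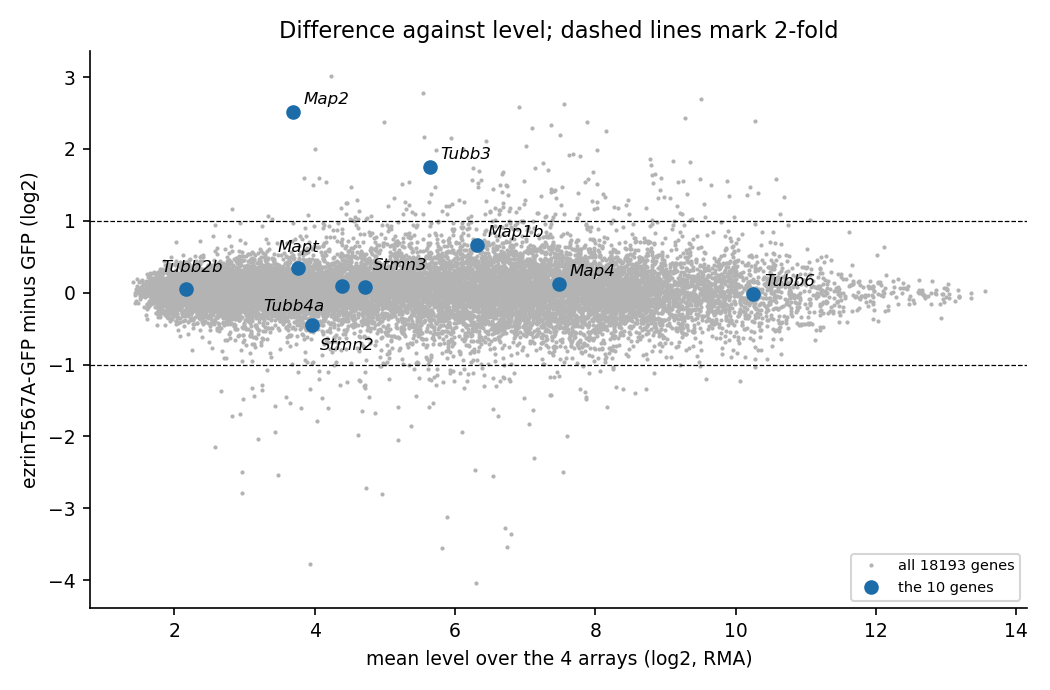
Difference between ezrinT567A-GFP and GFP (y axis, log2) against mean level over the 4 arrays (x axis, log2) for all 18193 genes (grey) and the 10 genes (blue, named). Dashed lines mark 2-fold: Map2 and Tubb3 lie above the upper line and the other 8 between the lines.

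The pattern of Map2 over the 4 arrays was closest, by Euclidean distance between values centred on each gene's mean, to that of Aldh3a1 (distance 0.30), an aldehyde dehydrogenase, Oas3 (0.47), an antiviral enzyme induced by interferon, and Mfsd6 (0.53), a membrane transporter-like protein. These are the nearest of the genes above the median level. Aldh3a1 read 5.38 in GFP and 8.06, 7.49 and 7.46 in ezrinT567A-GFP. The 3 genes were higher by 1.91 to 2.29. Since the ezrinT567A-GFP values of Map2 lie close together, its distance to another gene depends mostly on the size of that gene's difference from GFP. The nearest genes are thus largely fixed by that size, and no shared control is read from them. The distances rest on the GFP value of Map2, which lies under background, and with values raised to the background level the difference of Map2 was 0.83, so the likeness depends on a value that is not shown to be signal.

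The term neuronal describes where these genes are best known, not the cells studied. Of 19 measured markers of neurons, 12 lay under background in all 4 arrays, among them the neurofilament genes Nefl, Nefm and Nefh, the synaptic genes Snap25 and Syp, and Gap43 and Uchl1. The markers above background in every array were Eno2, Rbfox3, Prph, Elavl3 and Syn1. Syn1, which encodes the vesicle protein synapsin 1, was the one with the largest moderated t, at 4.65 in GFP and 5.24, 5.13 and 5.26, a difference of 0.57 (SE 0.13, limma adjusted p = 0.25). The median difference over the 19 markers was 0.04. Their summed level, a sum of log2 values, was 60.1 with GFP against 60.2, 61.1 and 59.9 with ezrinT567A-GFP. As 12 of the 19 values in each sum lay under background, the sums say little about expressed markers. With limma 0 of the 19 had an adjusted p under 0.05 and 1 had an unadjusted p under 0.05.

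Of 6 genes of neural progenitors and glia, Sox2 and Olig2 lay under background in all 4 arrays while Nes, which encodes the intermediate filament nestin, read 7.91 in GFP and 7.83, 8.27 and 8.61. Pax6 read 5.25 in GFP and 5.12, 5.03 and 4.70, lower in all 3, but its probe sets gave -0.30 to 0.18. Gfap read 4.58 in GFP and 4.37, 4.66 and 4.49, and S100b lay near background. The list's summed level, here and for the muscle list below a sum of log2 values, was 24.6 in GFP and between 24.2 and 25.1 in the others. Of 5 muscle genes, Myod1 and Myog were under background, while Des (0.20), Acta1 (0.27) and Ckm (0.21) were above it and higher in all 3 ezrinT567A-GFP arrays. A further probe set of Des gave -0.05 and a further one of Ckm -0.13. The median difference of the list was 0.20, 0 of the 5 had an unadjusted p under 0.05 with limma, and the list's summed level was 20.3 in GFP and between 20.6 and 21.5 in the others. Of 5 measured osteoblast markers, the collagen genes Col1a1 and Col1a2 read 11.2 to 12.5, the osteoblast transcription factor gene Sp7 5.05 to 5.41, Alpl 3.36 to 4.02, and Ibsp lay under background. In RNA of whole cultures a change in the share of cells that express a gene and a change per cell cannot be told apart, which holds for all values given here.

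**Figure D4:**
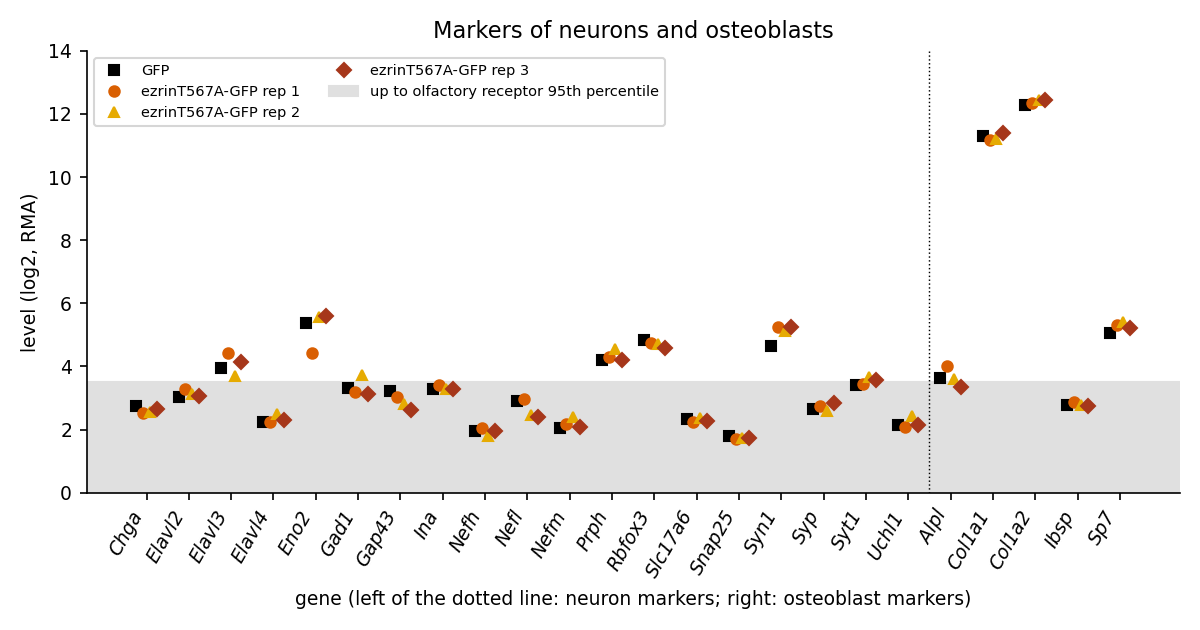
Level (y axis, log2) of 19 neuron markers and 5 osteoblast markers in the 4 arrays, with the same symbols and the range up to the highest olfactory receptor 95th percentile shaded. Most neuron markers lie in the shaded range in GFP and in ezrinT567A-GFP alike, and Col1a1 and Col1a2 lie above 11.

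To place the 10 genes within the microtubule system, 88 measured genes of 95 in 11 further lists were read from the same fit. With limma 0 of 88 passed an adjusted p of 0.05 in either direction, 10 were higher and 3 lower at an unadjusted p under 0.05, and the lowest adjusted p was 0.20. These 13 are 14.8% of the 88, near the 14% of all genes. Of the 88, 44 were higher and 44 lower, with a median difference of 0.004, and 2 (2.27%, against 0.973% of all genes) were at least 2-fold higher, Tuba1a and Map6. The medians of the 11 lists lay between -0.31, for the severing enzymes, and 0.18, for the proteins of microtubule ends. The latter was 0.07 without replicate 2, 0.06 with probe sets averaged, 0.03 with plain _at probe sets and -0.01 without genes under the median level.

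The largest differences among other tubulins were also on the higher side. Tuba1a, the main alpha tubulin of developing neurons, read 10.30 in GFP and 11.33, 11.12 and 11.48, a difference of 1.02 (SE 0.16, limma adjusted p = 0.21) and 2.02-fold. Its probe set is of a kind that can also bind related sequences, and probe sets of Tuba1b and Tuba1c alone were not analysed here. Tubb2a, a beta tubulin close in sequence to Tubb2b, read 9.55 in GFP and 10.26, 9.96 and 10.15, a difference of 0.58 (SE 0.15, limma adjusted p = 0.28), and a further probe set also gave 0.58, with replicate 2 highest there. Of the more general beta tubulin genes, Tubb5, the main beta tubulin of dividing cells, differed by -0.24 (SE 0.07). Tubb4b differed by -0.16, with 6 probe sets from -0.28 to 0.06, and Tubb6, given above, by -0.02 with overlapping groups. Of the remaining alpha tubulins, Tuba8 differed by 0.10, Tuba3b by 0.04 under background, and Tuba4a overlapped GFP.

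Of 13 other stathmins and structural MAPs, 8 were higher and 5 lower, where 10201 of all 18193 genes were higher. This list had a median of 0.12, which was 0 without replicate 2 and 0.37 without genes under the median level. Map6, whose product protects microtubules from cold in neurons, led it, at 5.49 in GFP and 7.09, 6.56 and 6.63, a difference of 1.27 (SE 0.26, limma adjusted p = 0.23) and 2.41-fold, although a further, dim probe set gave 0.20. Dclk1, a kinase with microtubule-binding doublecortin domains, was higher by 0.67 (SE 0.20, limma adjusted p = 0.30), and its 9 probe sets gave 0.07 to 0.68, all above 0. Map1s, a broadly made relative of Map1b, was higher by 0.37 (SE 0.13). As with Tubb3, replicate 1 was the highest and replicate 2 the lowest of the 3 arrays for Map6 and Dclk1.

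Among the genes that make and modify tubulin, the folding cofactor Tbcd, which assembles the dimer, read 7.90 in GFP and 8.60, 8.65 and 8.57, a difference of 0.70 (SE 0.11, limma adjusted p = 0.20), and 0.60 by a further probe set. The other 6 cofactors lay between -0.17 for Tbcb and 0.28 for Arl2. Svbp, the partner of the vasohibins that remove the tyrosine at the end of alpha tubulin, was higher by 0.60 (SE 0.11, limma adjusted p = 0.23). Atat1, the alpha tubulin acetyltransferase, differed by -0.46 (SE 0.12), with 4 probe sets from -0.46 to 0.20. The glutamylase Ttll4 differed by -0.51, with probe sets from -0.51 to 0.11. Tubg2 (-0.21, under background in all 4 arrays), Tubd1 (-0.22) and Tubg1 (0.10), which encode the gamma and delta tubulins of microtubule organising centres and centrioles, had adjusted p of 0.48 or more with limma.

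The severing enzymes, which cut microtubules, lay mostly below GFP, 4 of 5 genes, all 4 in each of the 3 arrays. Of all 18193 genes, 7984 were lower and 25.6% lay below GFP in all 3 arrays. A list of 5 genes is too short to read more from this count. The severing enzymes below GFP included Katnal1 (-0.46), Fignl1 (-0.54, probe sets -0.54 to 0.07) and Spast (-0.31, probe sets -0.31 to 0.10). Of the proteins of microtubule ends, Camsap2 (-0.46) and Clasp2 (-0.52) were below GFP and Clip1 (0.22) above. Transport kinesins were higher in 9 of 11 genes, where 10201 of all 18193 genes were. All 3 arrays lay above GFP in 5 of the 11, against 32.5% of all genes. The kinesin list had a median of 0.17 and was led by Kif3c (0.55, SE 0.11), Kif21b (0.51) and Kif21a (0.42, probe sets -0.03 to 0.42). Of the 10 genes for kinases that phosphorylate MAPs and their partners, 4 were higher and 6 lower. Mark1 (0.22, probe sets -0.10 to 0.51), Mark3 (0.25) and Cdk5 (-0.19, probe sets -0.19 to 0.28) had the largest moderated t.

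Rest, which encodes the repressor of neuronal genes in other cell types, read 7.21 in GFP and 6.78, 6.78 and 7.11, a difference of -0.32 (SE 0.19, limma adjusted p = 0.52), and its 4 probe sets gave -0.57 to -0.04. Its corepressor gene Rcor3 differed by -0.60 (SE 0.23, limma adjusted p = 0.37), with probe sets from -0.71 to 0.30, and Rcor2 by 0.19. The 7 genes of this list had a median of -0.05, with 1 higher and 6 lower, where 7984 of all 18193 genes were lower. All 3 ezrinT567A-GFP arrays lay below GFP in 2 of the 7, Rest and Rcor3, against 25.6% of all genes. The list is too short to read more from these counts.

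**Figure D5:**
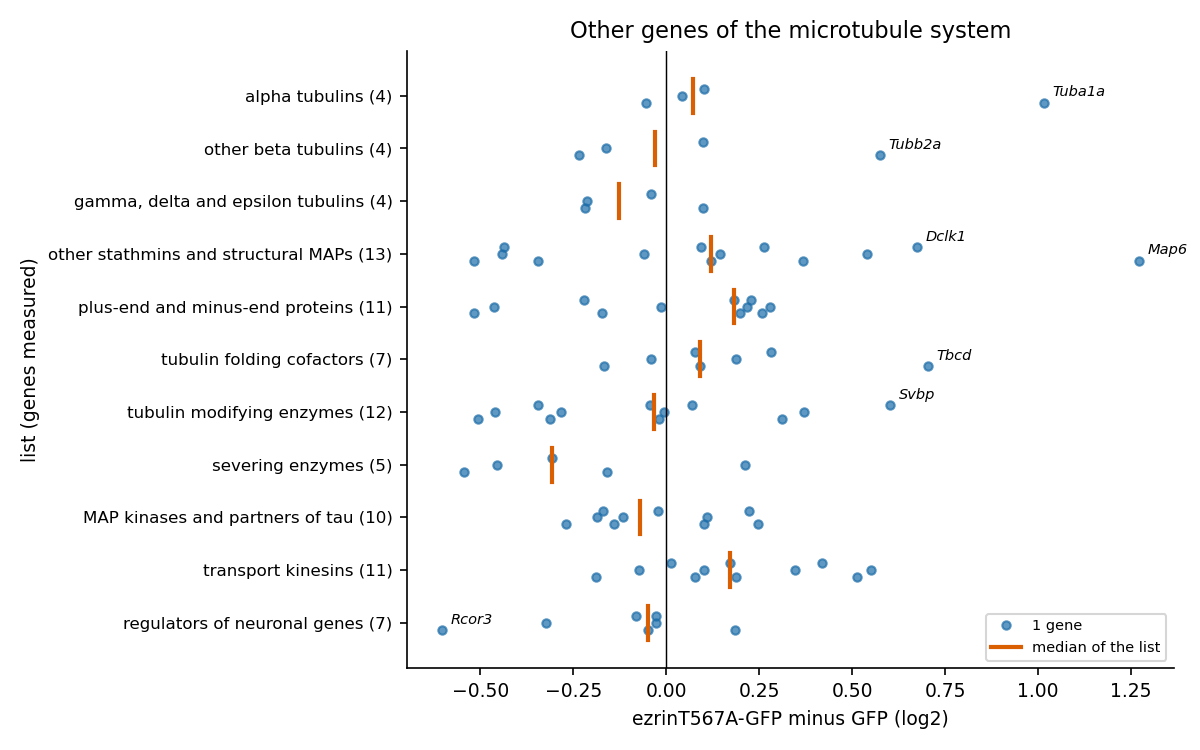
Difference between ezrinT567A-GFP and GFP (x axis, log2) for 88 other genes of the microtubule system (points) in 11 lists (y axis, with the number of genes measured). Orange bars mark each list's median, which lie between -0.31 and 0.18, and the named points include Map6 (1.27) and Tuba1a (1.02).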

How the data were processed

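Levels were measured on 4 one-colour Affymetrix arrays, 1 of K7M2 cells with GFP and 3 with ezrinT567A-GFP, grouped by the sample titles. The deposited values are log2 levels per probe set that the authors made with RMA, per the submitters' processing notes; the program that ran it is not given in the sources used here. This method evens out the arrays, which hides any change in total RNA per cell. That the scale is log2 was read from the values.

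Of 45101 probe sets, 34945 named 1 gene in the platform annotation and were no controls. They stood for 18193 genes, each by its brightest probe set. Probe sets naming several genes were not used in tests. Chromosomes came from a gene table of GRCm38.p6, by gene ID.

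The values were fitted over all genes with limma 3.58.1 in R 4.3.3 (lmFit, eBayes with a mean trend, two-sided, Benjamini-Hochberg threshold 0.05). Spread came from the ezrinT567A-GFP arrays alone (2 degrees of freedom, plus 2.23 from the prior), so the fit takes the single GFP array to be as variable as they are. SE is the moderated standard error. The number of arrays limits the precision. In 10 simulations with the same number of arrays over 18193 genes, 67.2% of the genes changed 4-fold were called. Of those changed 2-fold, 2.8% were called, beside a mean of 4 unchanged genes. The simulated noise was normal, independent between genes and arrays and alike in both groups, with no array effect. These rates hold for that setting and do not describe the power of the real arrays. The labels name no batch. Figures were drawn with matplotlib 3.10.9.

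The genes and lists were chosen with earlier results of these data known. From each further list the 3 genes with the largest moderated t were named, and for Map2, the gene with the largest difference, the 3 genes nearest in pattern. Other genes named, such as Tuba4a and single markers, were picked after their values were seen. Alternatives were quantile normalization, median centring, averaging of probe sets, plain _at probe sets, each further probe set, leaving out dim genes or a replicate, other eBayes priors, and subtracting the chromosome median. A floor at background was added after seeing the data.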

Additional observations from a re-analysis of the deposited data

How the results depend on the processing

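The count of genes called by limma over all genes, 0, became 34 after quantile normalization, 30 after median centring, 6 when probe sets were averaged, 3 when genes under the median level were dropped and 9 under a robust prior, while it was 0 with plain _at probe sets, without a mean trend and without any 1 of the 3 ezrinT567A-GFP replicates. The cause was not tested. Related microtubule genes called numbered 0 under all 10 alternatives. The 2 genes at least 2-fold apart among the 10, Map2 and Tubb3, became 1 with the mean of probe sets, where Map2 gave 0.87, and 1 without dim genes, since the mean level of Map2 lies under the median of all genes. Leaving out a replicate gave 2 each time. The 2 related genes at least 2-fold apart became 1 after median centring, 1 with the mean of probe sets, and 0 with plain _at probe sets, since both stood by other kinds, and 1 to 2 when a replicate was left out. All genes at least 2-fold apart numbered 305, and 227 to 362 over 8 alternatives. Of 105 alternative values of the 10 genes' differences, 85 lay within 1 SD of the value reported. This count is partly fixed in advance and is no measure of robustness. Leaving out 1 of 3 arrays cannot move their mean by 1 SD of the same arrays. For genes with 1 probe set, some alternatives repeat the reported value. Map2 ranged from 0.09 to 2.85, Tubb3 from 1.46 to 1.93 and Map1b from 0.32 to 0.92, all above 0. Of 88 alternative list medians, 72 lay within 1 SD of the array medians. No paired analysis was possible because the GFP group has 1 array with no replicate number. Levels near background, those of Tubb2b and of most further probe sets above all, limit what can be said of these genes.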

Other observations

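The measured genes beside Map2 and Tubb3 on their chromosomes had differences under 2-fold. Neighbours were chosen after the values of Map2 and Tubb3 had been seen. Of the 3 measured genes on each side of Map2, Pikfyve differed by 0.17, Pth2r by 0.12, Crygf by -0.36, Unc80 by 0.19, Rpe by -0.43 and Kansl1l by -0.92 on the log2 scale. Over the 24 nearest measured genes the median was -0.01, and over the 9 of them above the median level it was 0.08. The chromosome 1 median of -0.34 was also taken over genes above the median level. Of the 24 neighbours, 0 were at least 2-fold higher. Of all genes 0.973% were, so 0 of 24 says little about the neighbourhood. Beside Tubb3, Spire2 differed by 0.48, Tcf25 by 0.26, the melanocortin receptor gene Mc1r, whose transcripts can run on into TUBB3 in humans, by -0.06 under background, Def8 by -0.03, Afg3l1 by 0.63 and Dbndd1 by 0.08. Over 24 neighbours the median was 0.14, with 0 at least 2-fold higher and all 3 ezrinT567A-GFP arrays above GFP in 11. Of all genes, 32.5% had all 3 arrays above GFP. For Map1b the median over 24 neighbours was 0.07, with 1 at least 2-fold higher.

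Agbl5, a tubulin deglutamylase gene, read 5.14 in GFP and 4.63, 6.96 and 4.95 in ezrinT567A-GFP replicates 1, 2 and 3, so that replicate 2 alone stood high. Eno2 read 5.39 in GFP and 4.43, 5.57 and 5.61, so that replicate 1 alone stood low.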
